A study of Homo sapiens with 6 samples.

Results

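The AP-1 and immediate early genes described here are JUN, JUNB, JUND, FOS, FOSB, FOSL1, FOSL2, ATF3, EGR1 and IER2, a list of gene symbols drawn up with earlier results of these data known. All 10 were among the 26372 gene symbols measured, and all 10 were above 0 in each library. RNA came from SH-SY5Y, a neuroblastoma cell line of human origin that is widely used as a neuron-like model. The control group (shNC, genotype labelled control) carried a lentiviral control hairpin and the other group (shTDP43, genotype labelled TDP-43 knockdown) a lentiviral hairpin against TDP-43, the RNA-binding protein encoded by TARDBP. Both groups were infected with a vector that drives the hairpin from a U6 promoter, and the protocol describes selection in 2 µg/mL puromycin for 2 weeks and upkeep in 1 µg/mL. The labels name 1 hairpin against TDP-43 and no uninfected cells, and separate infections or cultures are not stated for the 3 libraries in each group. The p-values below therefore measure only the spread between these libraries, which may be technical.

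AP-1 is a dimeric transcription factor built from proteins with a basic DNA-binding region and a leucine zipper. JUN proteins pair with each other, with FOS proteins or with ATF proteins, whereas FOS proteins need a JUN partner. Most of these genes are immediate early genes, which are transcribed within minutes of a growth factor, depolarisation or stress signal without the need for new protein synthesis, and whose mRNAs are short-lived. In neurons FOS, FOSB, JUNB and EGR1 are commonly read as markers of recent activity, and ATF3 and JUN are induced after axon injury.

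TARDBP, the gene targeted by the hairpin, had 56.1, 56.2 and 56.6 FPKM (fragments per kilobase of transcript, scaled to the mapped fragments of a library) in the shNC libraries and 36.0, 33.1 and 34.8 FPKM in the shTDP43 libraries. The groups did not overlap, and the shTDP43 mean was 61.5% of the shNC mean (log2 fold change -0.69, SE 0.03; limma adjusted p = 2.84e-06; exact two-sided permutation p = 0.1, the smallest that 3 against 3 libraries allow). The deposited values hold no read totals. Relative depth read from the steps of low values was between 1.15 and 1.28 in shNC and between 1 and 1.11 in shTDP43, so depth and group cannot be told apart for genes near 0. Of 16 noradrenergic neuroblast markers 15 had a mean of at least 1 FPKM, the exception being TH. Of 11 markers of blood, endothelial or epithelial cells, KRT5, KRT14 and CD3E were at 0 in each library. EPCAM had means of 0.984 FPKM in shNC and 1.03 in shTDP43, CD68 had 0.868 and 1.015, and the others were lower. shNC replicate 1 and shTDP43 replicate 3 stood apart by a low level of the small nucleolar RNA SNORD3A. For members and list genes named by a rule given below, values without both are given where a call ends. They are also given where a count moves by more than 1.5 times. Genes chosen after their values were seen were not followed one by one through such alternatives.

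The sequences before the transcription start of 6 members are shown first, because these proximal stretches hold letters known as binding sites of AP-1, CREB and serum response factor proteins; sites farther upstream are not covered. RefSeq windows for GRCh38.p14 were found for 9 of the 10 members (not FOSL1), and the last 140 bases before the annotated start are printed 5′ to 3′ on the strand of the gene. Capitals mark matches, on either strand, to the core TGACG of the cAMP response element, to the JUN2 element TGACATCA, to the TATA box TATAAA and to the CArG box that serum response factor binds.
FOS, chr14:75278688-75278827, plus strand: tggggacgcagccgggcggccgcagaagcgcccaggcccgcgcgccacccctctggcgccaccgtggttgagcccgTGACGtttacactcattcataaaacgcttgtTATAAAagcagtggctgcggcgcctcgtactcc
FOSB, chr19:45467856-45467995, plus strand: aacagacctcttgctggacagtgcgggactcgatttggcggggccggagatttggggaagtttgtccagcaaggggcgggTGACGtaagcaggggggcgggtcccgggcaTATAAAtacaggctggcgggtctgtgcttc
JUNB, chr19:12791346-12791485, plus strand: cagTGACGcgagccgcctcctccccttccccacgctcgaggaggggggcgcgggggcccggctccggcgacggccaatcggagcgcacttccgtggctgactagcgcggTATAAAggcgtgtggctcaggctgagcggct
EGR1, chr5:138465339-138465478, plus strand: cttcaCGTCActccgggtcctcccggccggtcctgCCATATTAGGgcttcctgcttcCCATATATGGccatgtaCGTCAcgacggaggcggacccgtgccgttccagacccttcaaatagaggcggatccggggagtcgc
JUN, chr1:58784048-58784187, minus strand: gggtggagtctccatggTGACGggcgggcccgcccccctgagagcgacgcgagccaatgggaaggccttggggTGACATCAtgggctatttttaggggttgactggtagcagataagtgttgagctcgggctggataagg
ATF3, chr1:212565267-212565406, plus strand: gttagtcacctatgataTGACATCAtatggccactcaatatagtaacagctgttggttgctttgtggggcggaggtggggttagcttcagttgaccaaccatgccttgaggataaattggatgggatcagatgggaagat

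In the full 250 bases before the start, 8 of the 9 members held the core TGACG, against 21.2% of 35116 RefSeq windows. ATF3 was the member without it in the windows searched. Those lie before the first annotated start of the gene, printed above, and before a further start downstream. Any other start of ATF3 was not searched. The windows of the 8 members with the core held 62% (JUN) to 74.8% (JUND) G and C bases, and those of ATF3 49.2% and 44.8%. The median over all windows was 58%, and the shares given here were not matched for this content. The JUN2 element TGACATCA, a site that JUN and ATF proteins bind, was found in JUN and ATF3 and in 2.37% of windows. JUND alone held the full cAMP response element TGACGTCA, which contains the core and was found in 1.65% of windows. EGR1 alone held CArG boxes, at bases -105 to -96 and -83 to -74 from the start, against 1.16% of windows with such a box. FOS, FOSB and JUNB had a TATA box about 30 bases before the start, at bases -33 to -28, -30 to -25 and -31 to -26, and a TATA box was found in 10.7% of windows. A further annotated start of ATF3 also held TATAAA in its window, at bases -230 to -225. No member held the TPA response element TGACTCA in these 250 bases, which was in 4.2% of windows. These matches describe letters in a short window and say nothing of binding in these cells.

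Of the 10 members, 9 reached the mean of 1 FPKM set for testing, and all 9 had a limma adjusted p below the threshold of 0.05. In shTDP43 6 of them were higher and 3 were lower. Over all 13263 tested genes 38.1% passed, 18.5% as higher and 19.6% as lower, so a pass by itself was common in this comparison. JUNB, FOS, FOSB, FOSL2, EGR1 and IER2 rose, and JUN, JUND and ATF3 fell. The groups did not overlap for 8 of the 9, all except IER2, against 50.7% of tested genes. Most of the shifts were modest, with a median absolute log2 fold change of 0.23 over the 9 members, 0.12 over all tested genes and 0.24 over tested genes that passed. A difference in these bulk libraries can come from more or fewer cells that hold a transcript or from more or less of it per cell, which cannot be told apart.

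**Figure D1:**
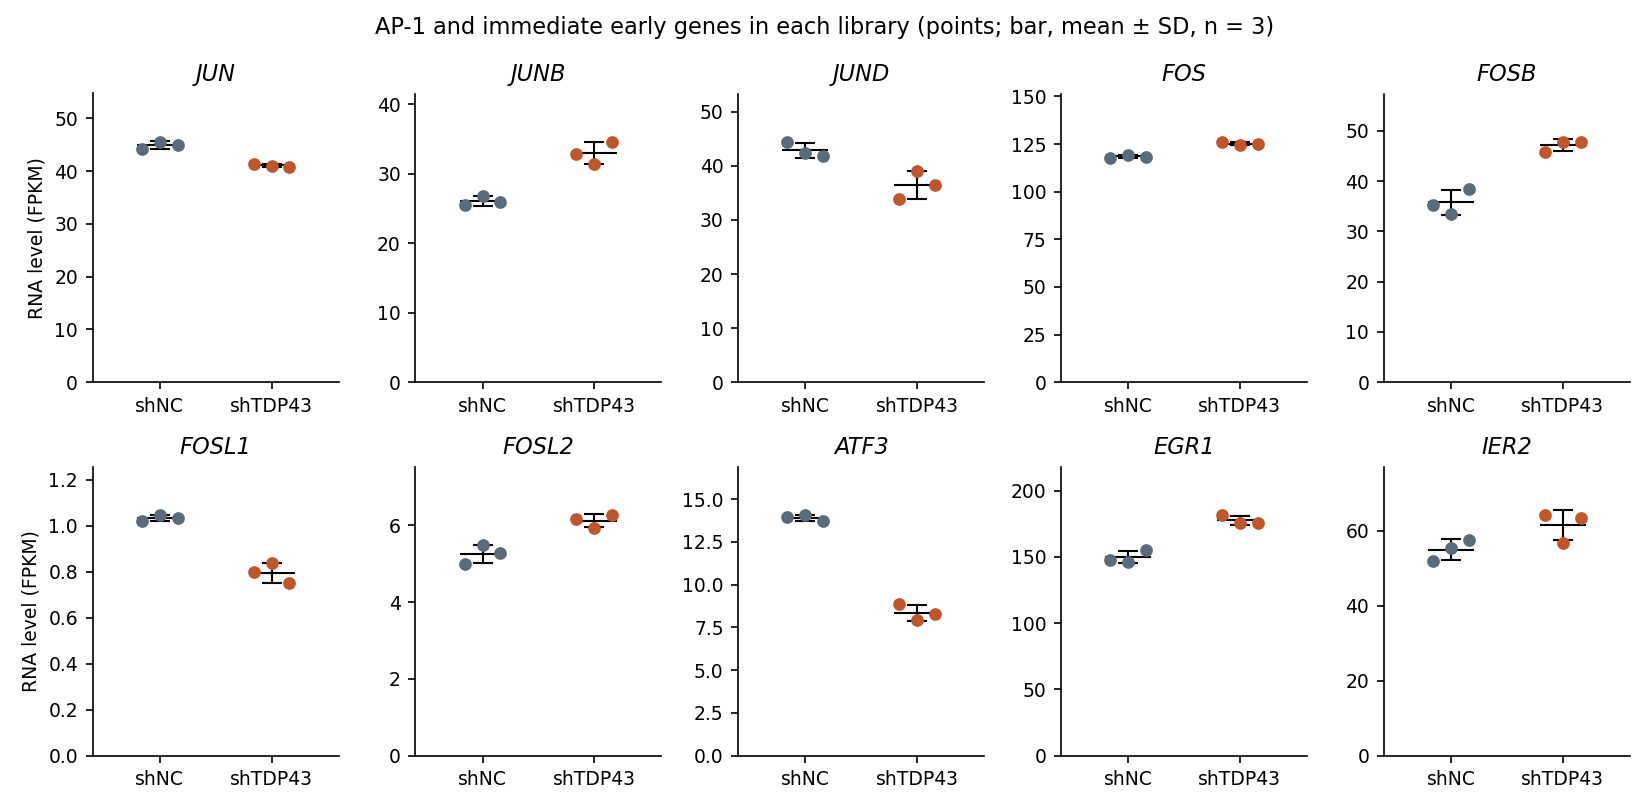
RNA level in FPKM (vertical axes from 0, a separate scale for each gene) of the 10 members in the 3 shNC and 3 shTDP43 libraries; points are libraries and bars give the mean ± SD. The ATF3 points lie near 14 in shNC and near 8 in shTDP43, whereas JUNB, FOSB and EGR1 are higher in each shTDP43 library.

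The 3 JUN family genes moved in different directions. JUN (chromosome 1, 58780791 to 58784047), which encodes the founding subunit c-Jun, had 44.2, 45.6 and 45.0 FPKM in shNC and 41.4, 41.1 and 40.8 FPKM in shTDP43. The shTDP43 libraries were all lower, by a small step, and JUN fell to 91.5% of control (log2 fold change -0.13, SE 0.02; limma adjusted p = 0.00453). JUND (chromosome 19, 18279694 to 18281622), which encodes the subunit that is present without stimulation in most cells, had 44.5, 42.3 and 41.8 FPKM in shNC and 33.9, 39.1 and 36.5 FPKM in shTDP43. It fell to 85.2% of control with no overlap of the groups, although the shTDP43 libraries were widely spread (log2 fold change -0.23, SE 0.05; limma adjusted p = 0.0085). JUNB (chromosome 19, 12791486 to 12793315), which encodes a weaker activator that can oppose c-Jun, had 25.5, 26.9 and 25.9 FPKM in shNC and 32.8, 31.4 and 34.6 FPKM in shTDP43. Each shTDP43 library lay above each shNC library, and JUNB rose to 126% of control (log2 fold change 0.33, SE 0.04; limma adjusted p = 0.000469). All 3 are genes without introns. JUNB lies partly over HOOK2 on the opposite strand, and no source used here says whether counting used strand, but HOOK2 itself had only 4.61 ± 0.352 FPKM in shNC and 4.12 ± 0.248 in shTDP43 (SD, n = 3). Without shNC replicate 1 and shTDP43 replicate 3 together, JUND had a limma adjusted p of 0.0743.

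Among the FOS family, which supplies the partners that cannot form dimers with themselves, FOSB showed the widest rise. FOSB (chromosome 19, 45467996 to 45475179), whose splice form ΔFosB builds up with repeated neuronal activity, had 35.4, 33.5 and 38.4 FPKM in shNC and 45.8, 47.8 and 47.9 FPKM in shTDP43. The lowest shTDP43 library was above the highest shNC library, and FOSB rose to 132% of control (log2 fold change 0.39, SE 0.05; limma adjusted p = 0.000458). The values sum all transcripts of a gene, so ΔFosB itself was not analysed here. In GENCODE release 29 ERCC1, a DNA repair gene, lies partly over exons of FOSB on the opposite strand (the RefSeq gene ends short of FOSB), and reads of both cannot be told apart if strand was not used. ERCC1 had 25.7 ± 0.972 FPKM in shNC and 26.1 ± 0.825 in shTDP43 (SD, n = 3), a level not far below that of FOSB, and did not pass (limma adjusted p = 0.739). FOS (chromosome 14, 75278828 to 75282230), the classical immediate early gene, had 117.9, 119.5 and 118.2 FPKM in shNC and 126.3, 124.6 and 124.8 FPKM in shTDP43. Its libraries were tightly grouped, with a residual SD on the log2 scale that only 0.437% of tested genes undercut, and FOS rose to 105.6% of control (log2 fold change 0.08, SE 0.02; limma adjusted p = 0.0156). FOSL2 (chromosome 2, 28392858 to 28417317), which encodes the longer-lived subunit Fra-2, had 4.99, 5.47 and 5.28 FPKM in shNC and 6.15, 5.93 and 6.26 FPKM in shTDP43. It rose to 116.5% of control without overlap (log2 fold change 0.19, SE 0.05; limma adjusted p = 0.0217).

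FOSL1 (chromosome 11, 65892049 to 65900545), which encodes Fra-1, a subunit linked with mesenchymal and invasive cell states, was near the lowest level tested. It had 1.02, 1.05 and 1.03 FPKM in shNC and 0.799, 0.839 and 0.750 FPKM in shTDP43, 77.0% of control, with each shTDP43 library below each shNC library. Its mean was under 1 FPKM, so it was fitted only without the filter on low values (log2 fold change -0.18, SE 0.05; limma adjusted p = 0.037), and relative depth also differed between the groups, whose part was not tested. The call of FOS was lost without shTDP43 replicate 1 (limma adjusted p = 0.0513), and its log2 fold change was 0.13 after quantile normalization. That of FOSL2 ended when replicate 1 or 3 of shNC, or replicate 1 or 3 of shTDP43, was left out (limma adjusted p = 0.0719, 0.0514, 0.0556 and 0.0646), and that of FOSL1 when any 1 library was left out (0.0651 to 0.107).

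Levels per length were also summed within each family. Such sums take FPKM of different genes as comparable, which overlapping genes such as ERCC1 at FOSB and HOOK2 at JUNB, and reads with several matches, may limit. The JUN family summed to 114 ± 1.06 FPKM in shNC and 111 ± 2.09 in shTDP43 (SD, n = 3), and within it JUNB took 22.3%, 23.4% and 23.0% in the shNC libraries and 30.4%, 28.2% and 30.9% in the shTDP43 libraries. The share of JUND was 37.6% ± 1.16 in shNC and 33% ± 1.87 in shTDP43, and that of JUN 39.5% ± 0.68 and 37.2% ± 0.986. JUNB thus held a larger part of the family sum in each shTDP43 library than in any shNC library. The FOS family summed to 159, 160 and 163 FPKM in shNC and 179, 179 and 180 FPKM in shTDP43. FOSB took 22.3% ± 1.3 of that sum in shNC and 26.3% ± 0.623 in shTDP43, FOS took 73.8% ± 1.21 and 69.8% ± 0.6, and FOSL2 took 3.27% ± 0.151 and 3.41% ± 0.0897, where the groups overlapped. The ratio of FOS to JUN was 2.64 ± 0.0282 in shNC and 3.05 ± 0.0134 in shTDP43. These sums and shares are descriptions of RNA, carry no test, and were not measured as protein.

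**Figure D2:**
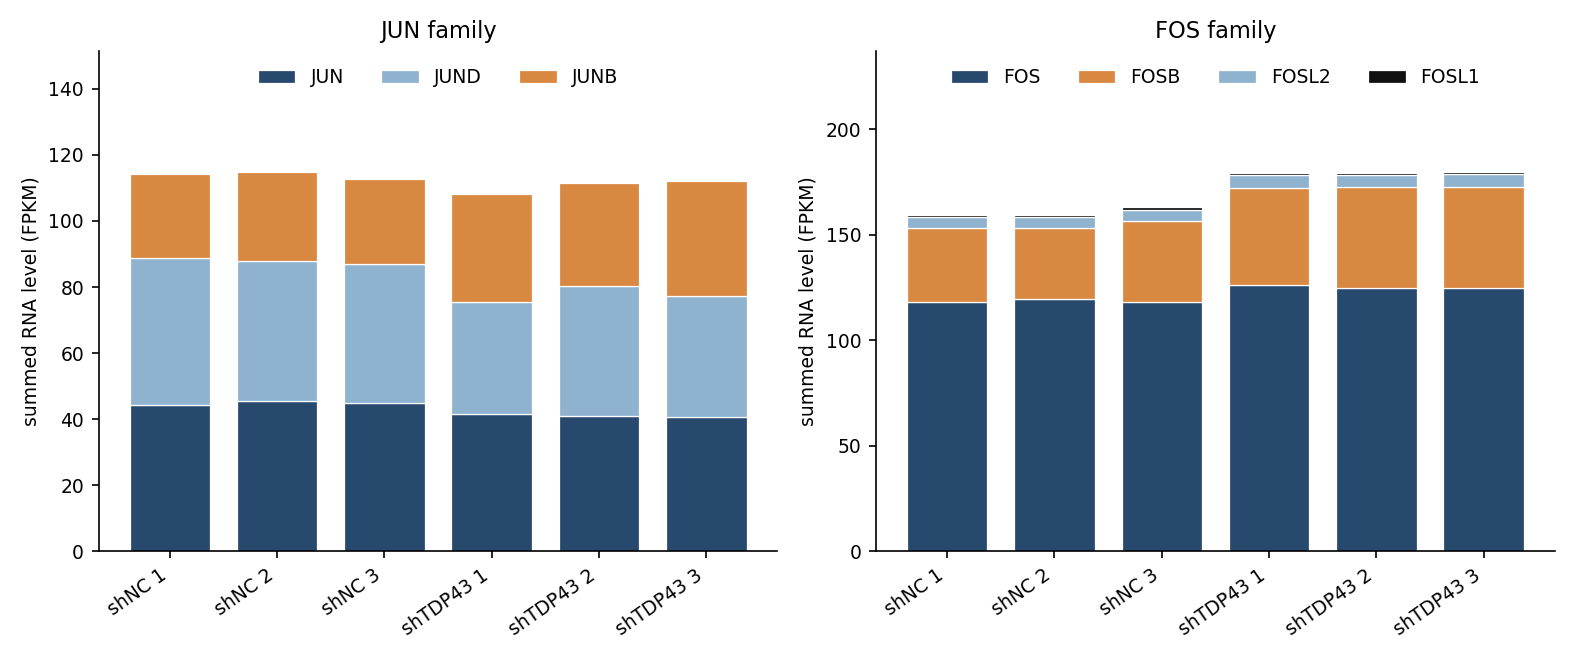
Summed RNA level in FPKM (vertical axes from 0) of the JUN family, left, and the FOS family, right, in each library, divided by gene. JUNB is the top segment of the left bars and takes between 28.2% and 30.9% of the sum in shTDP43, and the bars of the FOS family reach 179 FPKM or more in each shTDP43 library.

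ATF3 showed the largest change of the 10 members. ATF3 (chromosome 1, 212565407 to 212620777) encodes a stress-induced bZIP protein that acts mainly as a repressor and pairs with JUN proteins. It had 13.9, 14.1 and 13.7 FPKM in shNC and 8.86, 7.94 and 8.26 FPKM in shTDP43. The groups were far apart relative to their spread, and ATF3 fell to 60.1% of control (log2 fold change -0.67, SE 0.05; limma adjusted p = 1.93e-05). Only 2.51% of tested genes had a larger absolute log2 fold change. The ratio of ATF3 to JUN was 0.309 ± 0.00582 in shNC and 0.203 ± 0.0103 in shTDP43 (SD, n = 3).

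EGR1, a zinc finger factor outside the bZIP family that is induced through serum response factor, was the most abundant member in both groups. The gene lies on chromosome 5, at 138465479 to 138469303. EGR1 measured 147.7, 146.3 and 154.8 FPKM in shNC and 181.5, 175.9 and 175.6 FPKM in shTDP43. Every shTDP43 library was higher, and EGR1 rose to 119% of control (log2 fold change 0.25, SE 0.03; limma adjusted p = 0.000319). IER2 (chromosome 19, 13150411 to 13154911), whose product is a nuclear protein, had 52.0, 55.4 and 57.4 FPKM in shNC and 64.2, 56.9 and 63.5 FPKM in shTDP43. shTDP43 replicate 2 lay below shNC replicate 3, so the groups overlapped. IER2 was at 112% of control and passed narrowly (log2 fold change 0.16, SE 0.05; limma adjusted p = 0.0425). Leaving out replicate 1 or 2 of shNC, or replicate 1 or 3 of shTDP43, ended the call of IER2 (limma adjusted p = 0.127, 0.0805, 0.123 and 0.123), as did the fit without a filter on low values (0.0892).

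**Figure D3:**
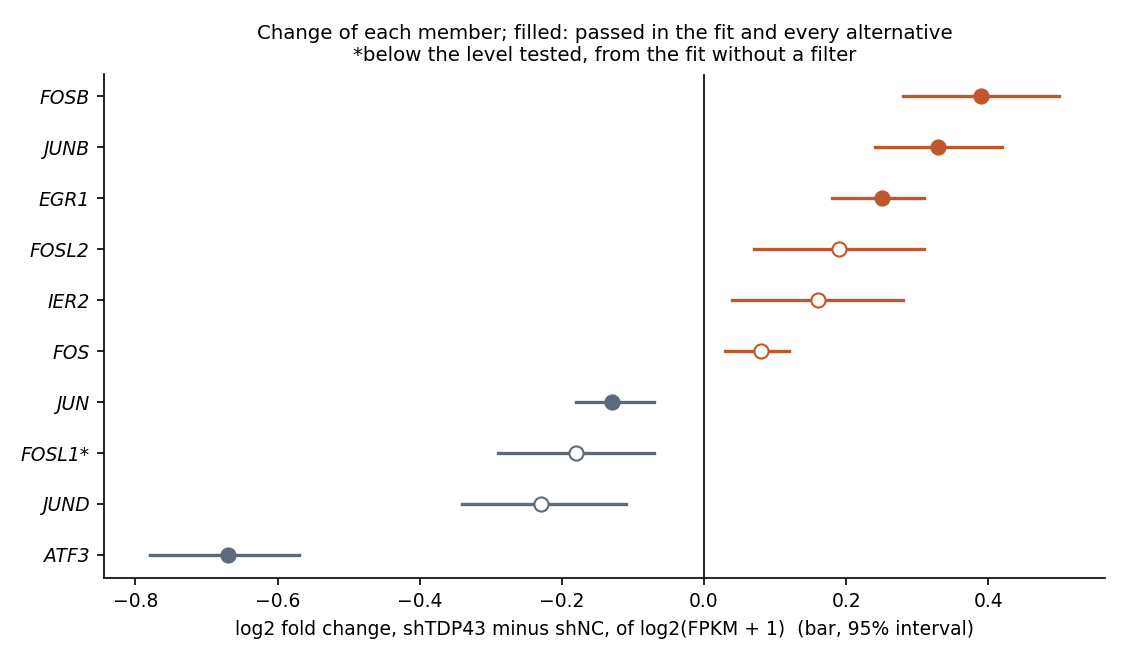
Difference between shTDP43 and shNC on the log2(FPKM + 1) scale (horizontal axis) for each member, with its 95% interval; FOSL1, marked with an asterisk, comes from the fit without a filter. The filled points, FOSB, JUNB, EGR1, JUN and ATF3, passed under each alternative run, and the open points did not.

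The calls that held under each of the 15 alternatives run were those of 5 members, namely FOSB, JUNB and EGR1 as higher and JUN and ATF3 as lower. FOS, FOSL2, IER2 and JUND each missed the threshold in at least 1 alternative. Of the 15 alternatives JUND passed in 14, FOS in 12, FOSL2 in 9 and IER2 in only 6. No member changed its direction in any alternative. Without shNC replicate 1 and shTDP43 replicate 3 together, 3 members were higher and 2 lower. Without shTDP43 replicate 1, 3 were higher and 3 lower.

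**Figure D4:**
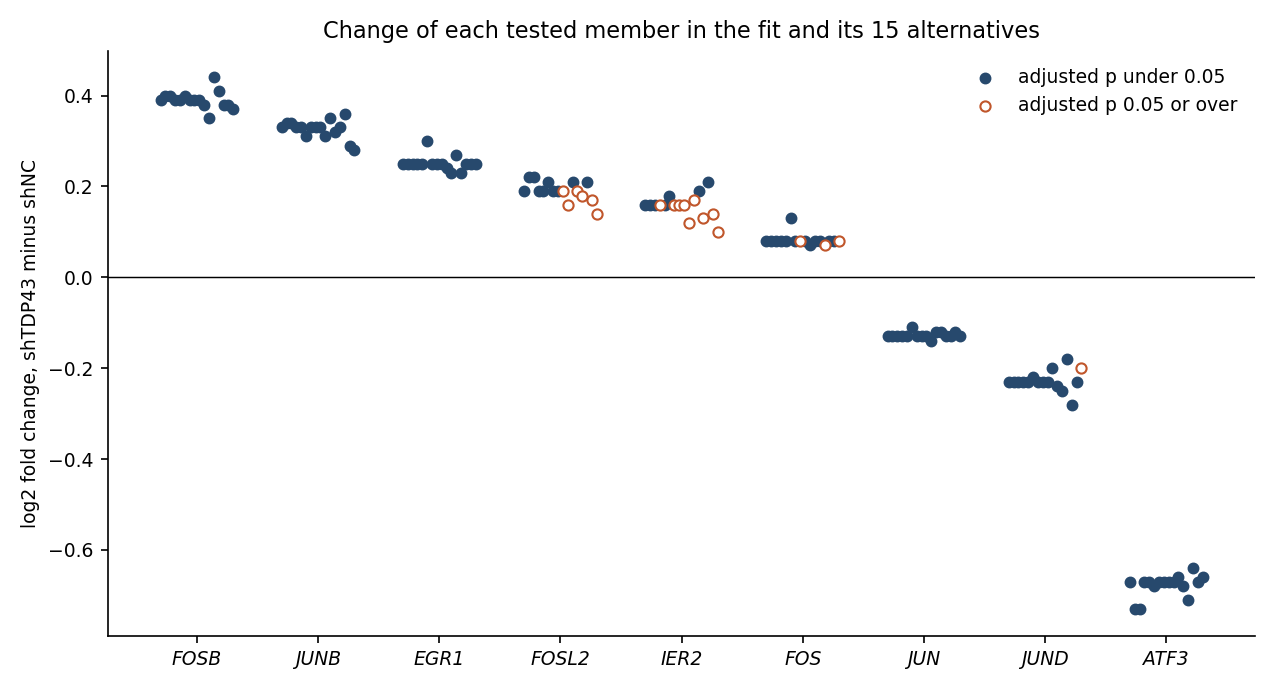
Difference between shTDP43 and shNC (log2 scale, vertical axis) of the 9 tested members, with a point for the reported fit and for each of its 15 alternatives; open points had a limma adjusted p of 0.05 or over. ATF3 stays between -0.73 and -0.64 and FOSB between 0.35 and 0.44, and the open points belong to FOSL2, IER2, FOS and JUND.

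The order of the members by level differed between the groups in the middle of the range. In shNC the order was EGR1, FOS, IER2, JUN, JUND, FOSB, JUNB, ATF3, FOSL2 and FOSL1, and only the neighbours JUN and JUND had overlapping libraries. In shTDP43 FOSB, with the overlap by ERCC1 given above, at 47.2 ± 1.17 FPKM, stood above JUN, at 41.1 ± 0.318 FPKM, without overlap, and JUND and JUNB overlapped. The ends of the order were the same in both groups, with EGR1 at 149.6 ± 4.54 and 177.6 ± 3.31 FPKM and FOSL1 at 1.03 ± 0.0133 and 0.796 ± 0.0446 FPKM (SD, n = 3).

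The members share some features that did not enter their choice. JUNB, IER2, JUND and FOSB lie on chromosome 19. In GENCODE release 29 the longest coding transcript of the members runs from 1669 bases in FOSL1 to 6708 in FOSL2. It has 1 exon in JUN, JUNB, JUND and IER2, 2 in EGR1 and 4 in each of the others. In the same release antisense genes lie over exons of FOSL2 and IER2 on the opposite strand. The one at FOSL2, FLJ31356, had 0.0156 ± 0.0151 FPKM in shNC and 0.0116 ± 0.0101 in shTDP43 (SD, n = 3). The level of the one at IER2, AC011446.2, was not examined. The AU-rich heptamer TATTTAT, part of the elements that shorten the life of immediate early mRNAs, was in the longest transcript of 7 of 10 members and of 34.4% of 19669 protein-coding genes. TDP-43 is known to bind GU-rich RNA. The repeat GTGTGTGT, searched on the transcript strand, was in JUNB, JUND, FOSB and FOSL2 and in 15.5% of those genes. JUND, which fell, had 4 overlapping matches, and JUNB, FOSB and FOSL2, which rose, had 1, 2 and 1. Introns were not searched.

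By pattern over the 6 libraries, the tested genes of at least 5 FPKM most like FOSB were ZNF146, PSMC3 and DOLPP1, with Pearson r of 0.996, 0.994 and 0.993. Those most like ATF3 were CNN2, SNX7 and PACS1, with r of 0.9998, 0.9991 and 0.9987. ZNF146 stood at 113% of control, whereas CNN2, which encodes the actin-binding protein calponin 2, stood at 48.6%. The libraries fall into 2 groups, and 424 genes reached an r above 0.95 with FOSB and 801 with ATF3, of 9584 compared, so these values describe a shared group difference and carry no test.

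Other genes of the pathway were followed through 6 lists. Among 27 tested partners of AP-1, namely other bZIP factors and coactivators, 4 were higher, 9 were lower and 14 did not pass, with a median log2 fold change of -0.08 against 0.00 over all tested genes. The share that passed was 48.1%, against 38.1% of all tested genes. CREB5, which encodes a bZIP factor that pairs with JUN, had 13.8, 14.7 and 13.6 FPKM in shNC and 4.95, 4.87 and 5.04 FPKM in shTDP43. The groups were widely separated, and CREB5 fell to 35.3% of control (log2 fold change -1.34, SE 0.04; limma adjusted p = 3.53e-07). JDP2, which encodes a repressor that binds JUN, fell to 55.1% of control and CEBPB to 62.0%, both at low levels. ATF2, the main ATF partner of JUN, fell to 94.5% (limma adjusted p = 0.0494). Those that rose were the bZIP gene NFE2L3, at 116% of control, the coactivator genes CREBBP, at 115%, and EP300, at 109.7%, and CREB1, at 112%. NACA, the most abundant gene of the list, had 751 ± 14.0 and 742 ± 22.9 FPKM (SD, n = 3) and did not pass. BATF and NFE2 were listed at 0 in each library. Without shNC replicate 1 and shTDP43 replicate 3 together, 2 partners were higher, namely NFE2L3 and CREBBP, and 8 were lower. JDP2, CEBPB and CREB1 missed the threshold (limma adjusted p = 0.0512, 0.0739 and 0.104), and EP300 was no longer among the higher partners.

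Upstream, the MAP kinase cascades and the factors that switch on immediate early genes changed in no common direction. Of 51 tested genes 9 were higher, 8 lower and 34 did not pass, a share of 33.3% that passed against 38.1% of all tested genes, and the median was 0.00. SRF, which encodes serum response factor, had 6.84, 6.62 and 7.10 FPKM in shNC and 9.23, 10.3 and 8.95 FPKM in shTDP43. Each shTDP43 library was higher, and SRF rose to 138% of control (log2 fold change 0.41, SE 0.06; limma adjusted p = 0.000859). Of its ternary complex partners, ELK1 rose to 120% and ELK3, which can repress, fell to 79.9% of control. The JUN kinase gene MAPK8 fell to 83.8% and its activator MAP2K4 to 83.5%, whereas the upstream kinase genes MAP3K11 and MAP3K4 rose to 130.3% and 122%. The other JUN kinase genes MAPK9, at 103.8%, and MAPK10, at 93.04%, and the other activator MAP2K7, at 98.85%, did not pass. MAPK12 fell to 72.7%, and CSNK2A1, the most abundant of the list, rose to 109.8%. The corepressor genes of EGR proteins did not pass, with NAB1 at 24.2 ± 0.232 and 23.99 ± 0.57 FPKM and NAB2 at 6.59 ± 0.365 and 5.61 ± 0.796 FPKM. Without shNC replicate 1 and shTDP43 replicate 3 together, 4 of the list were lower, and MAP3K11 and MAPK12 missed the threshold (limma adjusted p = 0.0893 and 0.0759). Without shNC replicate 2, 5 were lower.

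Of 49 other immediate early genes tested, 15 were lower, 8 were higher and 26 did not pass, with a median log2 fold change of -0.05. A share of 46.9% passed, against 38.1% of all tested genes. EGR3, a relative of EGR1, had 1.44, 1.61 and 1.34 FPKM in shNC and 3.39, 3.71 and 3.76 FPKM in shTDP43. It rose 2.47-fold without overlap (log2 fold change 0.91, SE 0.07; limma adjusted p = 5.69e-05). SPRY2 and TRIB1 rose to 147% and 150.3% of control, and MCL1, the most abundant of the list, from 109.8 ± 2.67 to 129 ± 2.03 FPKM (SD, n = 3). SGK1, a kinase gene induced by serum and glucocorticoids, had 5.99, 6.73 and 6.41 FPKM in shNC and 1.75, 1.70 and 1.46 FPKM in shTDP43, 25.7% of control (limma adjusted p = 3.02e-06). DUSP4, which encodes a phosphatase of MAP kinases in the nucleus, fell to 45.5% of control, from 57.2 ± 0.801 to 26.02 ± 0.762 FPKM, and IER5 fell to 48.5%. SGK1, DUSP4 and IER5 thus went the opposite way to EGR1 and FOSB.

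Further genes of this list were chosen after their values were seen. DUSP1 and DUSP6, phosphatase genes induced by the same signals, had 39.1 ± 1.54 and 40.9 ± 1.63 FPKM, and 50.9 ± 0.231 and 51.0 ± 0.846 FPKM (SD, n = 3), and did not pass; the 95% intervals of their log2 fold changes ran from -0.03 to 0.15 and from -0.05 to 0.06. ARC, a synaptic immediate early gene, fell to 80.0% of control. NPAS4, a neuronal gene induced by calcium entry, was under the level tested at 0.256, 0.374 and 0.411 FPKM in shNC and 1.67, 1.21 and 1.36 FPKM in shTDP43. Each shTDP43 library was higher, although depth also differed between the groups (fit without a filter, log2 fold change 0.84, SE 0.09; limma adjusted p = 0.00119). Without shNC replicate 1 and shTDP43 replicate 3 together, and also without shTDP43 replicate 2, 5 of the list were higher.

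Of 26 tested genes reported as AP-1 targets, 14 were lower, 2 were higher and 10 did not pass, with a median log2 fold change of -0.24, where 19.6% of all tested genes were lower. ANXA2, an annexin gene, had 19.9, 21.6 and 21.1 FPKM in shNC and 6.60, 4.88 and 6.62 FPKM in shTDP43, 28.9% of control (log2 fold change -1.65, SE 0.10; limma adjusted p = 9.16e-06). Its partner gene S100A10 had 1.95, 1.85 and 2.25 FPKM in shNC and 0.129, 0.0585 and 0 FPKM in shTDP43 and fell (limma adjusted p = 1.93e-05). S100A10 reached the level tested only through shNC, and was under it when any shNC library was left out. Its log2 fold change ran from -5.46 to -1.46 over the 11 alternatives that tested it. The chemokine gene CCL2 fell to 24.7% and CCND1, which encodes cyclin D1 and was the most abundant of the list, to 91.7% of control. CCL2 and KRT18, both counted among the lower targets, likewise reached the level tested only through shNC. In shNC their means were 3.60 and 2.17 FPKM, whereas in shTDP43 they lay under 1 FPKM, at 0.890 and 0.368. TNC, a matrix protein gene, rose to 184% of control and DNMT1 to 113%. The collagenase and cytokine genes often used to read AP-1 activity, MMP1, MMP3, IL6 and CXCL8, were listed at 0 in each library, as were 6 others of the list. ANXA2, CD44, FN1 and VIM are also markers of the mesenchymal type of neuroblastoma cell. Without these 4, 10 of 22 were lower and 2 higher, with a median of -0.18. Of the 18 mesenchymal markers 12 were tested, 9 were lower and 3 higher, and their median log2 fold change was -0.59. COL3A1 fell to 11.7% of control and VIM to 65.8%, whereas TWIST1, the most abundant, rose from 184 ± 3.23 to 267 ± 8.34 FPKM (SD, n = 3). The summed level of the mesenchymal markers ran from 561 to 568 FPKM in shNC and from 536 to 548 FPKM in shTDP43. Falls were not limited to this marker list. Of 15 tested noradrenergic neuroblast markers 8 were higher and 6 lower. The sum of all 16 ran from 3096 to 3131 FPKM in shNC and from 2638 to 2686 FPKM in shTDP43. Of 8 Schwann or glial markers 2 were tested, and these 2 were lower. The part of mesenchymal markers in the counts of AP-1 targets was not tested. With the filter raised to a mean of 5 FPKM, 8 AP-1 targets were lower and 1 higher. The share of all genes at that level that was lower was not set beside this count.

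**Figure D5:**
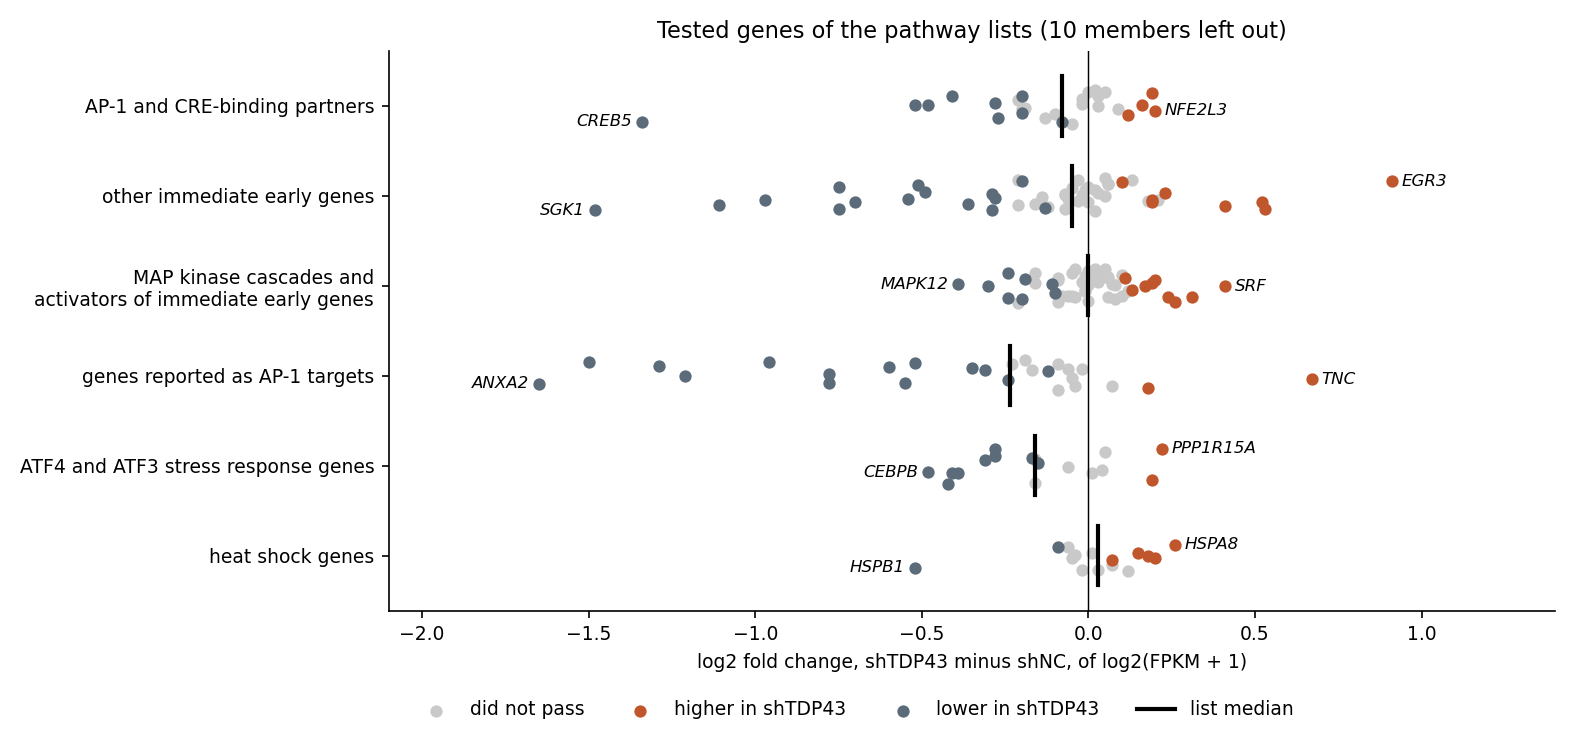
Difference between shTDP43 and shNC on the log2(FPKM + 1) scale (horizontal axis) for the tested genes of the 6 pathway lists, with the members left out; colours give the outcome of the limma test, vertical bars the list medians, and the outermost genes that passed are named. The median of the AP-1 targets lies at -0.24 and that of the MAP kinase list at 0.00.

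Of 17 tested genes of the ATF4 and ATF3 stress response, 9 were lower, 2 were higher and 6 did not pass, with a median log2 fold change of -0.16, where 19.6% of all tested genes were lower. The lower genes numbered 7 without shNC replicate 1 and shTDP43 replicate 3 together. ATF4, the translationally controlled activator of ATF3, had 119.7, 115.6 and 115.5 FPKM in shNC and 97.3, 100.0 and 92.1 FPKM in shTDP43. All shTDP43 libraries were lower, and ATF4 fell to 82.5% of control (log2 fold change -0.28, SE 0.03; limma adjusted p = 0.000446). DDIT3, which encodes the stress factor CHOP, fell to 72.0% of control, SESN2 to 67.3% and CEBPB as given above. PPP1R15A, a feedback phosphatase subunit gene, rose to 118% and EIF2S1, which encodes the initiation factor subunit that stress kinases phosphorylate, to 114.5%. Without shTDP43 replicate 3, PPP1R15A missed the threshold (limma adjusted p = 0.057) and 1 of the list was higher.

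Heat shock genes, which encode chaperones, moved in both directions, with 5 higher, 2 lower and 8 not passing of 15 tested, and a median of 0.03. The share that passed was 46.7%, against 38.1% of all tested genes. HSPA8 rose to 119.7% of control, DNAJA1 to 115% and HSPH1 to 114%, whereas HSPB1 fell to 69.3% and HSP90AA1 to 94.2%. HSP90AB1, the most abundant, had 606 ± 6.59 and 619.5 ± 8.97 FPKM (SD, n = 3) and did not pass, but passed as higher after quantile normalization (log2 fold change 0.11 against 0.03; limma adjusted p = 0.00949). The stress-inducible gene HSPA1A had 5.79 ± 0.0306 and 6.38 ± 0.67 FPKM, did not pass, and has a near-identical copy, HSPA1B, so its values are uncertain. Without shTDP43 replicate 3, HSP90AA1 missed the threshold (limma adjusted p = 0.0588) and 1 heat shock gene was lower. HSP90AA1 also missed it after quantile normalization (log2 fold change -0.03 against -0.09; limma adjusted p = 0.28), with no variance trend (0.0701) and without shNC replicate 1 and shTDP43 replicate 3 together (0.12).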

How the data were processed

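The authors deposited a table of FPKM values for 26372 gene symbols in 6 libraries. Per the submitters' processing notes, TopHat2 2.1.0, SAMtools and Cuffdiff 2.2.1 and the build hg38 were used. No source used here gives the annotation, strand use, treatment of reads with several matches or scaling. Absolute depth is unknown, and relative depth came from 1655 genes with a mean under 0.3 FPKM. No count model was used.

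Values were analysed as log2(FPKM + 1) with limma 3.58.1 in R 4.3.3, with group as the only term, a variance trend, a two-sided test and Benjamini-Hochberg adjustment over the 13263 genes whose mean reached 1 FPKM. Percentages of control are ratios of mean FPKM, and fold changes on this log scale understate those of low genes. The procedure was tested on simulated data with 50 genes changed at each size, far fewer changed genes than passed here. It recovered 28 of 50 genes changed 1.2-fold, 45 changed 1.5-fold and all 50 changed 2-fold or 3-fold. It also called 7 unchanged genes.

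The members and lists were chosen with earlier results of these data known. The rule named, per list, the 3 genes that rose most and the 3 that fell most of those passing without overlap, and the most abundant gene; further genes were chosen after their values were seen, among them EP300, ATF2, ELK1, MAP2K4, COL3A1, VIM, TWIST1 and the genes stated as at 0. The lists hold 228 genes, 6 of them in more than 1 list. Alternatives changed the pseudocount, filter, scaling, variance trend, replicate block and libraries. Gene by gene they were followed only for the members, TARDBP and the list genes named by the rule. Transcript features are from GENCODE release 29, and locations and promoter sequences from RefSeq for GRCh38.p14.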

Additional observations from a re-analysis of the deposited data

How the results depend on the processing

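Among the results followed through the alternatives, none that passed the test changed its direction. Of those that did not pass, NACA was -0.02 and turned to 0.06 with quantile normalization (limma adjusted p = 0.153), and the MAP kinase median, at 0.00, took either sign. Without shNC replicate 1 and shTDP43 replicate 3 together, which leaves 2 libraries a group, 3323 genes passed and 1563 were higher, 3 members were higher, and the log2 fold change was 0.08 for FOS (limma adjusted p = 0.0902), -0.17 for FOSL1 (0.189), 0.14 for FOSL2 (0.151), 0.10 for IER2 (0.272) and -0.20 for JUND (0.0743). In that setting 2 AP-1 partners and 5 other immediate early genes were higher, 4 MAP kinase genes and 1 heat shock gene were lower, and the medians were -0.04 for partners and -0.21 for targets. Without the variance trend FOS was 0.08 (0.0777) and IER2 0.16 (0.0868), and 1 heat shock gene was lower. FOS was 0.13 with quantile normalization. IER2 was 0.16 without a filter (0.0892) and with median scaling (0.0513). FOSL1 in the fit without a filter was -0.34 and -0.37 with pseudocounts of 0.1 and 0.01, -0.11 with quantile normalization and -0.15 with median scaling, and passed in none of these; these fits were chosen after seeing the data.

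Replicate numbers did not pair the libraries: deviations of same-numbered libraries correlated at -0.068, 0.064 and 0.112, and not every library correlated best with its own number. With the replicate block FOSL2 was 0.19 (limma adjusted p = 0.05002), IER2 0.16 (0.0524) and FOSL1 -0.18 (0.0991), and no other member's call changed.

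Other settings gave these medians. For partners the median was -0.02 without a filter and at 5 FPKM and -0.05 with quantile normalization. For other immediate early genes it was -0.06 with either smaller pseudocount, -0.07 without a filter, -0.02 at 5 FPKM and -0.04 with quantile normalization. For targets it was -0.28 with either smaller pseudocount, and 8 were lower and 1 higher at 5 FPKM. For heat shock genes it was 0.07 with quantile normalization, where 1 was lower.

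Leaving out each library in turn gave -0.10 to -0.05 for the partners' median, 1 to 2 higher and a median of -0.21 to -0.15 for stress genes, 5 to 8 lower and a median of -0.02 to 0.01 for MAP kinase genes, -0.29 to -0.21 for targets, 1 to 2 lower and 0.02 to 0.06 for heat shock genes, and 5 to 7 higher and -0.07 to -0.04 for other immediate early genes. Members higher numbered 3 to 6, and log2 fold changes ran from 0.07 to 0.08 for FOS, -0.20 to -0.16 for FOSL1, 0.16 to 0.21 for FOSL2 and 0.12 to 0.21 for IER2. Of 558 values for 38 named list genes, 547 kept their side of the threshold. For genes near 0 the unknown depth limits what can be read.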
